A study of Mus musculus with 6 samples.

Results

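The proteasome subunit and assembly factor genes were taken as every gene with a probe set of its own whose symbol starts with Psm, a letter from a to g and a number. The rule found 50 of the 19938 genes measured in this way, and all 50 were tested. They comprised 16 genes of the core particle, 20 of the regulatory cap and its chaperones, 5 of the immunoproteasome (Psmb8, Psmb9, Psmb10, Psme1 and Psme2), 4 Psmg assembly factors, and Psme3, Psme4 and Psmf1. Psmc3ip, a cofactor of meiotic recombination, and Psme3ip1, which encodes a protein that binds Psme3, matched the symbol rule but encode no proteasome subunit. The RNA came from livers of C57BL/6 males of the inbred laboratory strain, given as 6 weeks of age with 1 week of acclimatization, and was hybridised to Affymetrix Mouse Gene 1.0 ST arrays. In each 100 g of chow, one group received 100 mg of lovastatin plus 21 mg of ezetimibe (LE1, LE2 and LE3), and the other group received chow holding 1% cholesterol (CH1, CH2 and CH3). Lovastatin inhibits the enzyme that makes mevalonate, on the way to cholesterol, and ezetimibe the uptake of cholesterol in the gut, so both groups ate a supplemented diet. None of the 6 arrays is of the chow group that the labels describe, so effects of the drugs and of added cholesterol cannot be told apart. The labels call the arrays biological replicates without tying each to 1 animal, so the p-values here rest on the spread among arrays, part of which may be technical.

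The proteasome degrades proteins that carry a ubiquitin tag. Its barrel-shaped core is built from alpha and beta rings, with the cutting sites on some of the beta subunits, and a cap at the end of the barrel binds the tag, removes it, and unfolds and threads the substrate through a ring of ATPases. Interferons replace the catalytic beta subunits by inducible forms, which gives the immunoproteasome and changes the peptides that reach MHC class I molecules. Dedicated chaperones assemble core and cap and are not part of the finished particle. In cells with too little proteasome activity, the transcription factor NRF1, encoded by Nfe2l1, raises the subunit genes together, and in mouse liver the same factor has been described as a sensor of cholesterol in the endoplasmic reticulum.

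Most proteasome genes differed little between the diets. A rise was found for 3 genes (Psmd5, Psmb9 and Psmb5) and a fall for 1 (Psme4), while 46 of the 50 did not pass limma's test at an adjusted p of 0.05, and 12.1% of all genes tested passed, 7.01% higher and 5.08% lower. These counts are a description, and the difference between the shares was not tested. All log2 differences are lovastatin/ezetimibe minus cholesterol on the scale of log2(intensity + 1), and they ranged from -0.20 to 0.32 among the 50 genes, against -2.43 to 5.50 among all genes. A range widens with the number of genes, so quartiles are the fairer comparison. They were -0.02 and 0.11 for the 50 genes and -0.09 and 0.08 for all genes. The median was 0.042 for the 50 genes and -0.0049 for all genes, with a median SE of 0.054 and 0.065. For 47 of the 50 genes the difference was smaller than 0.2 in size, as it was for 82.6% of all genes. The 95% intervals of the 46 genes that did not pass lay between -0.36, the lower bound for Psmb11, and 0.42, the upper bound for Psma5. Of the 46, 5 had an unadjusted p under 0.05. With the 4 that passed these make 9 of 50, against 24.8% of all genes.

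**Figure D1:**
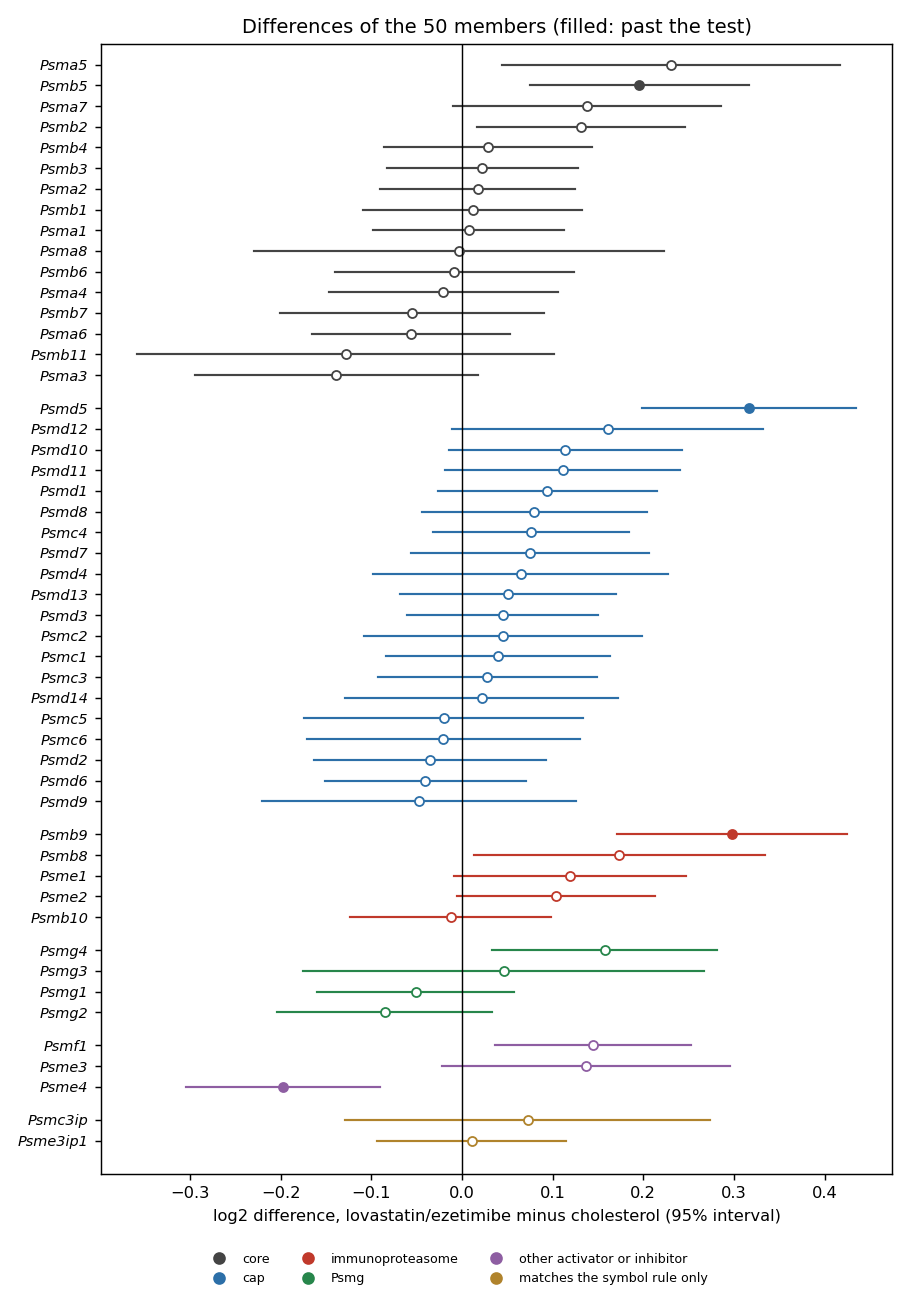
Differences of the 50 genes between the diets. Each row is a gene, the x axis gives the log2 difference (lovastatin/ezetimibe minus cholesterol), points are estimates from 3 arrays per diet, lines are 95% intervals, filled points passed the test, and colours mark the groups. Psmd5, Psmb9 and Psmb5 are filled to the right of 0, Psme4 is filled to the left at -0.20, and most other intervals cross 0.

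The tissue and scale of the arrays bear on differences as small as these. The 9 measured hepatocyte markers, among them Alb, Ttr and Apoa1, were bright on every array, with log2 differences from -0.09 to 0.11 and none past limma's test. Under limma's intensity trend 2 rose (Hnf4a and Apoa1) and 1 fell, and 2 rose under a regularised test like cyberT, the tool named in the study's design. Array medians of the deposited intensities lay between 158 and 163. The 1398 higher and 1012 lower genes became 1215 and 1294 when each array was centred on its median, and 1460 and 1598 after quantile normalisation, so that 48.4% of the called genes were higher after centring and 47.7% after quantile normalisation, against 58.0% as deposited. Centring moved the median of all genes to -0.031.

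The promoter windows of the 4 genes that passed are shown so that the letters near their starts can be read beside the values. The sequences are RefSeq's (build GRCm38.p6), 5′ to 3′ on the strand of the gene, from 250 bases before to 50 bases after the annotated start, and capitals mark matches to the motifs described next.
Psmd5, chr2:34870913-34871212, minus strand: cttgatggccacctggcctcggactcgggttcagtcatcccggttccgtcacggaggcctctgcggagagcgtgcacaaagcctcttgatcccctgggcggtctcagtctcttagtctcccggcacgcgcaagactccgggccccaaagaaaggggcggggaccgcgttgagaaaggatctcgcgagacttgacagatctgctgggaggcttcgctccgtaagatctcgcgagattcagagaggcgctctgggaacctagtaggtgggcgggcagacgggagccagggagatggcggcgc
Psmb9, chr17:34187281-34187580, minus strand: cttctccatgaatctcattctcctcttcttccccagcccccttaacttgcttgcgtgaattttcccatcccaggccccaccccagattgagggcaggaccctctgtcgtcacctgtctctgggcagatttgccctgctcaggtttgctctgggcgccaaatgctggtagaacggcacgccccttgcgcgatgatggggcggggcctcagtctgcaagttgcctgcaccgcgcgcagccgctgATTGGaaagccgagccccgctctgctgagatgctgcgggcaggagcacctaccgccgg
Psmb5, chr14:54617946-54618245, minus strand: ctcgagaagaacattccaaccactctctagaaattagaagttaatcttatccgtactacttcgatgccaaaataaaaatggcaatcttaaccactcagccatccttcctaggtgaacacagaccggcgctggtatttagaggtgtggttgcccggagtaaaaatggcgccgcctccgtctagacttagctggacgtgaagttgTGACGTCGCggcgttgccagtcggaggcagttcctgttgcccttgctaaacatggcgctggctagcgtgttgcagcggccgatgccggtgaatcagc
Psme4, chr11:30771525-30771824, plus strand: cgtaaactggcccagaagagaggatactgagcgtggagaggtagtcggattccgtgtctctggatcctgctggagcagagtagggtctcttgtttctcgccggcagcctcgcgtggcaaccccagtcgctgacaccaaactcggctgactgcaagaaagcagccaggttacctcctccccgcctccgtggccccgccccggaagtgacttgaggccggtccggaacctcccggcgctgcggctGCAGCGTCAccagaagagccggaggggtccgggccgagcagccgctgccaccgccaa

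The motifs searched on both strands were the interferon response element (GAAA, any 2 bases, GAAA), the antioxidant response element TGACNNNGC that NRF1 and its relatives bind, a sterol response element TCACNCCAC and the CCAAT box. RefSeq windows were matched for 42 of the 50 symbols. The antioxidant element was found in 6 of the 42, Psmb5, Psmb6, Psmc6, Psmd9, Psmd12 and Psme4, and in 12.4% of all 32851 windows, or 14% of all genes with a window. In Psmb5 it read TGACGTCGC from base -47 on the gene's strand, and in Psme4 GCAGCGTCA from base -7 on the other strand. Of these genes Psmb5 rose, Psme4 fell and 4 did not pass. The interferon element was in 5 of the 42 (Psmb3, Psmd4, Psmd9, Psme1 and Psmg4) and in 3.44% of all windows, or 3.99% of genes. The CCAAT box was in 16 of the 42 and in 37.4% of windows, or 41.1% of genes, and the sterol element in 0 of the 42 and in 1.24% of windows, or 1.44% of genes. In Psmb9 the CCAAT box read ATTGG from base -8, on the opposite strand, and the window of Psmd5 held none of the 4 motifs. A match describes letters and not a bound site, and windows without a match say nothing of a factor.

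In the core particle 1 of 16 genes rose and 15 did not pass, where 7.01% of all genes were higher. Psmb5, the catalytic beta subunit with chymotrypsin-like activity (probe set 10419810, chromosome 14), had log2 levels of 12.41, 12.29 and 12.32 in LE1 to LE3, against 12.17, 12.12 and 12.14 in CH1 to CH3. All lovastatin/ezetimibe arrays lay above all cholesterol arrays. The rise was 0.20 (SE 0.05), or 14.5%, with an adjusted p of 0.0488 from limma. This call sits at the threshold: it ended when any 1 of the 6 arrays was left out (adjusted p 0.0770 to 0.136) and when arrays were centred (0.0754), and its adjusted p spanned 0.000389 to 0.136 across the alternatives.

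The other catalytic subunits of the standard core showed no such separation. Psmb6, with caspase-like activity, had 11.02, 11.10 and 11.18 in LE1 to LE3 and 11.10, 11.14 and 11.09 in CH1 to CH3 (difference -0.01, 95% interval -0.14 to 0.12). Psmb7, with trypsin-like activity, had 11.01, 10.999 and 11.18 in LE1 to LE3 and 11.07, 11.14 and 11.15 in CH1 to CH3 (difference -0.06, 95% interval -0.20 to 0.09). In both genes the arrays of the diets overlapped, with LE3 the highest lovastatin/ezetimibe array. The structural beta subunits Psmb1, Psmb3 and Psmb4 differed by 0.01 to 0.03. Psmb2, another structural beta subunit, differed by 0.13 with groups that did not overlap (adjusted p = 0.149).

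Of the alpha ring, which gates the entry to the barrel, none of 7 genes passed limma's test, and 1 of them, Psma5, had an unadjusted p under 0.05. Psma5 had 10.21, 10.33 and 10.37 in LE1 to LE3 and 10.19, 10.11 and 9.92 in CH1 to CH3, a difference of 0.23 (SE 0.08, adjusted p = 0.118). Its groups did not overlap, but the gap between LE1 and CH1 was 0.03, and its second probe set overlapped between the diets. Psma5 and Psmb2 passed under the intensity trend (adjusted p 0.0135 and 0.0129) as well as under the cyberT-like test, so 3 core genes rose there. Over all alternatives the adjusted p ran from 0.0093 to 0.271 for Psma5 and from 0.0129 to 0.371 for Psmb2.

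Psma7, also of the alpha ring, had 10.10, 10.10 and 10.28 in LE1 to LE3 and 9.99, 10.03 and 10.05 in CH1 to CH3 (difference 0.14, adjusted p = 0.235). Psma6 had 11.70, 11.67 and 11.66 in LE1 to LE3 and 11.76, 11.74 and 11.70 in CH1 to CH3 (difference -0.06, adjusted p = 0.536). For Psma7 the diets did not overlap and for Psma6 they did, by LE1 and CH3. Psma3 had 11.23, 11.26 and 11.45 in LE1 to LE3 and 11.45, 11.43 and 11.48 in CH1 to CH3, a difference of -0.14 (SE 0.07, adjusted p = 0.259). LE3 alone stood among the cholesterol arrays. Psma3 had 3 probe sets, and the other 2 gave -0.13 and -0.15, all lovastatin/ezetimibe arrays lying below all cholesterol arrays in 1 of them. Psma1, Psma2 and Psma4 differed by -0.02 to 0.02. Psmb11 and Psma8 serve other organs. Psmb11, the thymus form of the catalytic subunit, had 6.52, 6.55 and 6.66 in LE1 to LE3 and 6.89, 6.74 and 6.49 in CH1 to CH3, and Psma8, the testis form of an alpha subunit, differed by less than 0.01. Both were among the dim genes that an alternative left out.

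The regulatory cap gave 1 gene that rose out of 20 and 19 that did not pass, where 7.01% of all genes were higher. Psmd5, a chaperone that binds an ATPase of the cap's base during assembly (probe set 10481920, chromosome 2), had 9.995, 10.05 and 10.06 in LE1 to LE3, against 9.77, 9.67 and 9.72 in CH1 to CH3. The lowest lovastatin/ezetimibe array stood 0.23 above the highest cholesterol array. Psmd5 averaged 10.04 ± 0.04 on lovastatin/ezetimibe arrays and 9.72 ± 0.05 on cholesterol arrays (SD, n = 3 arrays each), a 1.25-fold rise (log2 0.32, SE 0.05, limma's adjusted p = 0.0060). It was the largest difference among the 50 genes and passed in all 14 alternatives (adjusted p 4.10e-05 to 0.0319).

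The other chaperones of the cap did not pass. Psmd10, known as gankyrin, had 9.32, 9.38 and 9.47 in LE1 to LE3 and 9.26, 9.28 and 9.29 in CH1 to CH3 (difference 0.11, adjusted p = 0.259). Psmd9 had 8.85, 8.80 and 8.98 in LE1 to LE3 and 8.96, 8.80 and 9.01 in CH1 to CH3 (difference -0.05, adjusted p = 0.770). The arrays of the diets were apart for Psmd10, by 0.03, and overlapped for Psmd9.

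None of the 17 structural cap genes under the symbol rule passed limma's test, with or without the intensity trend, or the cyberT-like one, and none had an unadjusted p under 0.05 in limma's. Their differences ran from -0.04 to 0.16 with a median of 0.05, and every 95% interval lay between -0.17 and 0.33. The 6 ATPase genes Psmc1 to Psmc6, which form the unfolding ring, differed by -0.02 to 0.08. Among the lid and scaffold genes, Psmd12 had 10.41, 10.42 and 10.64 in LE1 to LE3 and 10.32, 10.27 and 10.39 in CH1 to CH3 (difference 0.16, adjusted p = 0.234). LE3 stood well above the other arrays there, while LE1 lay 0.02 above CH3. At the low end, Psmd6 had 10.395, 10.395 and 10.47 in LE1 to LE3 and 10.45, 10.47 and 10.46 in CH1 to CH3 (difference -0.04), and the scaffold gene Psmd2 had 11.80, 11.70 and 11.86 in LE1 to LE3 and 11.84, 11.82 and 11.80 in CH1 to CH3 (difference -0.04). Psmd14, the enzyme that removes the ubiquitin chain, differed by 0.02 (95% interval -0.13 to 0.17), and Psmd4, a ubiquitin receptor, by 0.06 (-0.10 to 0.23).

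Most cap genes were brightest on 1 of the 3 lovastatin/ezetimibe arrays. LE3 was the highest lovastatin/ezetimibe array for 19 of 20 cap genes, for 11 of 16 core genes and for 39 of all 50, against 52.8% of all genes. As means over the cap genes, the deviations from each gene's own mean were -0.02, 0.00 and 0.10 for LE1 to LE3 and -0.02, -0.05 and -0.02 for CH1 to CH3. LE3 thus stood apart from the other 5 arrays. Over all genes the same means were 0.01, -0.03 and 0.03 for LE1 to LE3 and -0.00, 0.00 and -0.02 for CH1 to CH3. Without LE3 the median difference of the cap genes was 0.02, against 0.05 with it, and that of the 50 genes 0.01, against 0.04. After centring, LE3 was the highest for 15 of 20 cap genes and 42.0% of all genes, and after quantile normalisation for 12 of 20 and 34.4%.

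**Figure D2:**
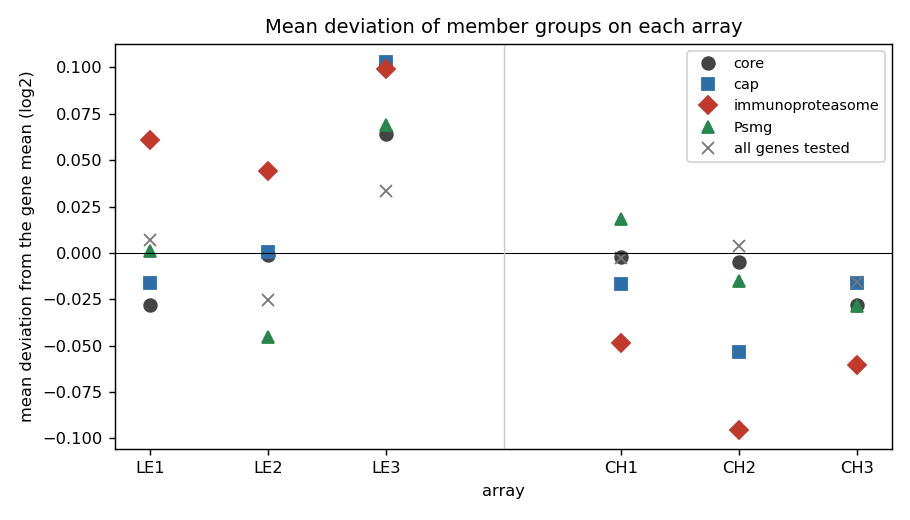
Mean deviation of the core, cap, immunoproteasome and Psmg genes on each array. The y axis is the mean over genes of the log2 level minus the gene's mean over the 6 arrays, each point is 1 group on 1 array, and crosses give all 19938 genes. The cap genes stand at 0.10 on LE3 and between -0.05 and 0.00 on the other arrays, and the immunoproteasome genes lie above 0 on LE1 to LE3 and below 0 on CH1 to CH3.

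The arrays of the diets did not overlap upwards for 18 of the 50 genes, among them 7 cap, 5 core and 3 immunoproteasome genes, and downwards for 1, Psme4. Of all genes, 15.9% lay wholly above and 14.7% wholly below, together 30.6%. After centring each array on its median these counts were 8 of 50 upwards and 5 downwards, against 12.8% and 19.4% of all genes, and after quantile normalisation 11 and 7, against 15.0% and 19.9%. Of the 20 cap genes, 1 lay wholly above and 1 wholly below after centring, and 4 and 1 after quantile normalisation. Of the 5 immunoproteasome genes, 3 lay wholly above after centring, but 1 above and 1 below after quantile normalisation. Positive differences were found for 34 of 50 genes (68%) as deposited, against 48.3% of all genes. After centring they were found for 28 (56%), against 39.6%, and after quantile normalisation for 28 (56%), against 45.2%. The median of the core genes, 0.01 as deposited, was -0.02 after centring and -0.01 after quantile normalisation, so no direction can be given for it. The medians of the cap genes (0.02 and 0.01) and of the immunoproteasome genes (0.09 and 0.09) stayed positive under these scalings.

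Of the 5 immunoproteasome genes 1 rose and 4 did not pass, with a median difference of 0.12, where 7.01% of all genes were higher. Psmb9, the inducible counterpart of Psmb6, lies in the MHC region (probe set 10450145, chromosome 17). It had 9.44, 9.35 and 9.33 in LE1 to LE3, against 9.09, 9.01 and 9.12 in CH1 to CH3. It averaged 9.37 ± 0.06 on lovastatin/ezetimibe arrays and 9.07 ± 0.05 on cholesterol arrays (SD, n = 3 arrays each), with no overlap between the diets. The rise was 1.23-fold (log2 0.30, SE 0.05, limma's adjusted p = 0.0111) and passed in all 14 alternatives (adjusted p 0.000438 to 0.0412).

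The other immunoproteasome genes differed by less. Psmb8, the inducible counterpart of Psmb5 and a neighbour of Psmb9, had 8.83, 8.89 and 8.99 in LE1 to LE3 and 8.84, 8.65 and 8.71 in CH1 to CH3 (difference 0.17, SE 0.07, adjusted p = 0.169). LE1 lay just below CH1, so the diets overlapped. Psmb10, the inducible counterpart of Psmb7, had 9.55, 9.54 and 9.60 in LE1 to LE3 and 9.59, 9.54 and 9.59 in CH1 to CH3 (difference -0.01, 95% interval -0.12 to 0.10). Its arrays were interleaved. Psme1 and Psme2, which form the activator ring PA28 that opens the core without ubiquitin, were higher on every lovastatin/ezetimibe array than on any cholesterol array as deposited, a separation that did not hold for both after quantile normalisation, and did not pass. Psme1 had 10.73, 10.76 and 10.87 in LE1 to LE3 and 10.64, 10.71 and 10.66 in CH1 to CH3 (difference 0.12, adjusted p = 0.236). Psme2 had 11.48, 11.41 and 11.44 in LE1 to LE3 and 11.32, 11.34 and 11.35 in CH1 to CH3 (difference 0.10, adjusted p = 0.225). With the intensity trend Psme2 passed (adjusted p = 0.0476, the lowest of a range up to 0.448).

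**Figure D3:**
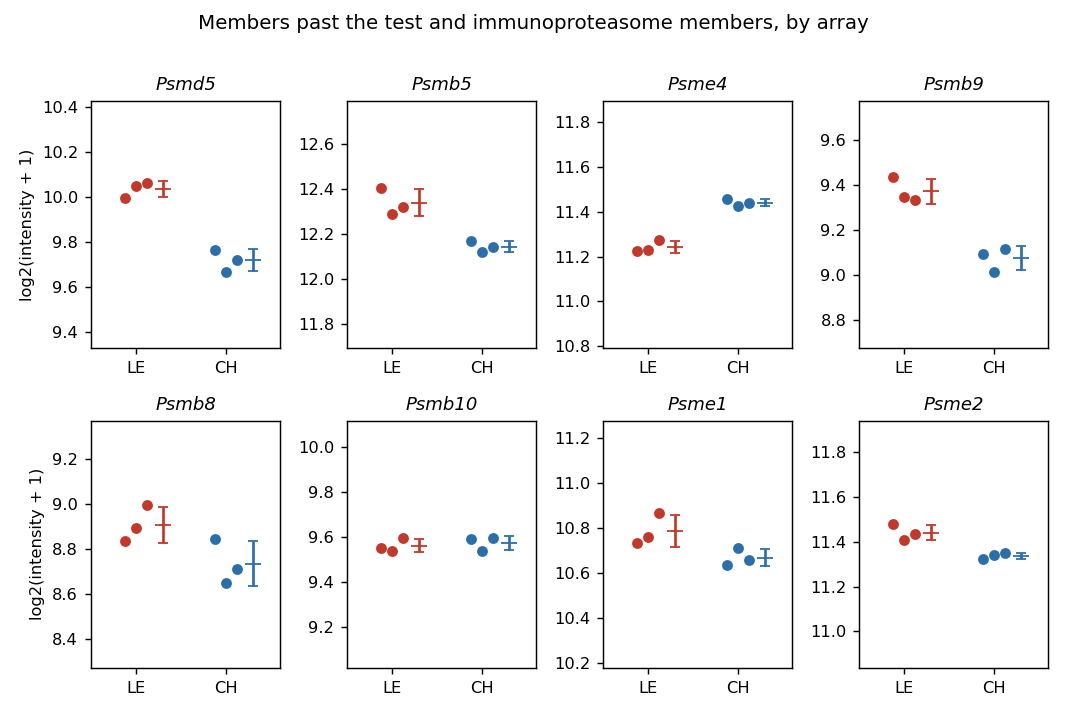
Levels of the 4 genes that passed the test and of the other immunoproteasome genes. The y axis is log2(intensity + 1) with the same span in each panel, dots are single arrays of lovastatin/ezetimibe (LE, left) and cholesterol (CH, right) livers, and bars give the mean and SD of 3 arrays. Psmd5 and Psmb9 are separated by more than 0.2, Psme4 is lower in LE, and the Psmb10 dots of both diets coincide.

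Since each inducible subunit takes the place of a standard one, the 3 pairs were also set against each other within arrays, a comparison chosen after the values were seen. The log2 ratio of Psmb9 to Psmb6 was higher by 0.31 with lovastatin and ezetimibe, with -1.58, -1.76 and -1.85 in LE1 to LE3 and -2.004, -2.13 and -1.97 in CH1 to CH3. The groups did not overlap (two-sided exact permutation p = 0.1, the smallest that 3 against 3 arrays can give, and 0.3 adjusted over the 3 pairs). The ratio of Psmb8 to Psmb5 differed by -0.02 (exact permutation p = 0.9) and that of Psmb10 to Psmb7 by 0.04 (exact permutation p = 0.5). Only the change of a ratio between diets is read here, since levels of different probe sets are not comparable.

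Psmb9 and Tap1, which encodes a subunit of the transporter that carries proteasome-made peptides into the endoplasmic reticulum, are read in opposite directions from nearby starts. Their annotated starts are 226 bases apart on chromosome 17, and their promoter windows share 275 of 300 bases. Tap1 had 9.31, 9.27 and 9.40 in LE1 to LE3 and 9.01, 8.93 and 9.05 in CH1 to CH3, a rise of 0.33 (SE 0.06, adjusted p = 0.0094), beside 0.30 for Psmb9. Of 10 measured genes of MHC class I antigen processing, 3 rose and 7 did not pass. Besides Tap1 these were Tapbp, the peptide-loading chaperone tapasin (0.50, SE 0.05, adjusted p = 0.00081), and its relative Tapbpl (0.32, SE 0.06, adjusted p = 0.0149). The call of Tapbpl ended without LE1 (adjusted p = 0.0504, the highest of a range starting at 0.000486). B2m, the light chain of MHC class I, differed by -0.01. Tap2 differed by 0.12 and did not pass limma's test (adjusted p = 0.192). Of the 10 genes, 4 lay wholly above and 2 wholly below, against 15.9% and 14.7% of all genes. The 2 below were Pdia3 (-0.13) and Canx (-0.05), neither past the test. H2-K1 and H2-D1, also on the list, were not measured.

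Most of the listed interferon-response genes and macrophage markers were also higher with lovastatin and ezetimibe. Of 14 measured interferon-response genes, 10 rose and 4 did not pass (median 0.58), led by Usp18 (0.97), Cxcl10 (0.85), Rsad2 (0.81) and Irf7 (0.72). Irf1, a transcription factor that drives Psmb9 and Tap1, differed by 0.13 with groups that did not overlap (adjusted p = 0.183). Of 13 macrophage markers 12 rose (10 or 11 with 1 array left out) and 1 did not pass, with Cd68 (0.55), Cd163 (0.50), Lyz2 (0.48) and C1qb (0.47) the highest. The summed intensity of the 13 markers was 14498 to 14874 in lovastatin/ezetimibe livers and 11030 to 11732 in cholesterol livers, and none was at 0. Of 7 pan-leukocyte markers 3 rose, Laptm5 (0.49), Ptprc (0.26) and Rac2 (0.21), and 4 did not pass. The calls of Ptprc (adjusted p between 0.0098 and 0.123) and Rac2 (0.0122 to 0.138) did not hold throughout: 1 or 2 of the 7 markers passed when any 1 array was left out, 1 after centring, and 5 with the intensity trend, with the cyberT-like test or without the dim genes. Their summed intensity was 2886 to 3039 in lovastatin/ezetimibe livers and 2357 to 2463 in cholesterol livers. The part of these cells in the rise of Psmb9 was not tested, and in whole liver, more cells of a type and more RNA per cell cannot be told apart.

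Markers of other non-hepatocyte cells gave no gene that rose. Of 10 T and NK cell markers none passed limma's test, although Cd4 passed as lower after centring, after quantile normalisation and without the dim genes (difference -0.18, adjusted p = 0.0708 as deposited, 0.0269 to 0.242 in the alternatives). Their summed intensity was 1051 to 1136 in lovastatin/ezetimibe livers and 1052 to 1118 in cholesterol livers. Of 5 B cell markers 1 fell, Pax5, by 0.25 (adjusted p = 0.0267, with 0.0147 to 0.1004 in the alternatives), a call that ended without LE1, LE2, CH1, CH2 or CH3 and under the cyberT-like test. Pax5 was itself among the dim genes that an alternative left out. The 6 dendritic cell, 6 endothelial, 6 stellate cell and 4 cholangiocyte markers had differences from -0.13 to 0.15 with none past limma's test, and the endothelial markers Stab2 and Clec4g passed as lower under the intensity trend and after quantile normalisation.

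The 4 Psmg genes encode chaperones that build the alpha ring of the core. None passed by limma or by the cyberT-like test, and 1, Psmg4, had an unadjusted p under 0.05. Psmg4 had 8.59, 8.62 and 8.67 in LE1 to LE3 and 8.53, 8.45 and 8.42 in CH1 to CH3 (difference 0.16, SE 0.05, adjusted p = 0.110), the only one of the 4 whose groups did not overlap. Psmg3 had 7.31, 7.14 and 7.50 in LE1 to LE3 and 7.30, 7.35 and 7.17 in CH1 to CH3, with a wide interval of -0.17 to 0.27 around 0.05. Psmg1 had 9.50, 9.47 and 9.45 in LE1 to LE3 and 9.54, 9.49 and 9.55 in CH1 to CH3 (difference -0.05). Psmg2 had 9.11, 9.09 and 9.15 in LE1 to LE3 and 9.20, 9.14 and 9.25 in CH1 to CH3 (difference -0.09). The group thus held 2 positive and 2 negative differences, and Psmg1 and Psmg2 each overlapped by 1 array of a diet.

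Among the remaining regulators 1 gene fell. Psme4 encodes PA200, a large single-chain activator that caps the core and is known for its part in histone degradation (probe set 10374934, chromosome 11). It had 11.23, 11.23 and 11.27 in LE1 to LE3, against 11.46, 11.43 and 11.44 in CH1 to CH3. All lovastatin/ezetimibe arrays lay below all cholesterol arrays by at least 0.15. It fell by 0.20 on the log2 scale (SE 0.05, limma's adjusted p = 0.0301), but the call ended without LE1, LE2, CH1, CH2 or CH3 (adjusted p 0.0743 to 0.122, and as low as 0.000392 in other alternatives). Psme3, a nuclear activator related to Psme1, had 10.90, 10.90 and 11.10 in LE1 to LE3 and 10.81, 10.78 and 10.89 in CH1 to CH3 (difference 0.14, adjusted p = 0.275). Psmf1, named as an inhibitor of the core, had 10.02, 10.09 and 10.05 in LE1 to LE3 and 9.90, 9.91 and 9.92 in CH1 to CH3 (difference 0.14, SE 0.05, adjusted p = 0.0946). Psmf1 was separated between the diets and passed in 3 of 14 alternatives (adjusted p 0.0234 to 0.251). Psmc3ip (0.07) and Psme3ip1 (0.01) overlapped between the diets.

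The genes that work with the proteasome were described from lists. Of 11 measured partners, among them the core maturation factor Pomp (-0.0048) and the cap deubiquitinases Usp14 (-0.06) and Uchl5 (-0.08), 1 rose and 10 did not pass. The gene that rose was Ubqln2, which shuttles tagged proteins to the cap (0.41, SE 0.05, adjusted p = 0.0023). Sem1, a small cap subunit whose symbol falls outside the rule, differed by -0.19 and did not pass (limma's adjusted p = 0.0974). All its lovastatin/ezetimibe arrays lay below all cholesterol arrays. Under the intensity trend 2 partners were higher and 1 lower. Of 10 genes of the p97 segregase, which pulls tagged proteins out of membranes and complexes, none passed limma's test. Nploc4 differed by 0.13 (adjusted p = 0.155) and passed under the intensity trend and the cyberT-like test, Ubxn4 differed by 0.11, and Vcp, the segregase itself, by 0.02. Uba6, an activating enzyme, was the measured gene of the ubiquitin list and differed by 0.13 (adjusted p = 0.432).

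In the list around NRF1, 3 of 9 genes passed, 2 of them higher and 1 lower, and after either centring or quantile normalisation 2 were lower. Nfe2l1 had 10.75, 10.72 and 10.82 in LE1 to LE3, against 10.44, 10.48 and 10.44 in CH1 to CH3. It rose 1.24-fold (log2 0.31, SE 0.05, adjusted p = 0.0059) and passed in all 14 alternatives. Mafk, a small Maf protein that pairs with NRF factors, rose by 0.40 (SE 0.06, adjusted p = 0.0044), and Bach1, a repressor at the same elements, fell by 0.25 (SE 0.05, adjusted p = 0.0244). The other small Maf genes, Maff and Mafg, did not pass. Maff differed by -0.21, with all lovastatin/ezetimibe arrays below all cholesterol arrays (limma's adjusted p = 0.0522), and Mafg by 0.03 with overlapping arrays. The call of Bach1 ended when any 1 of the 6 arrays was left out, and over all 14 alternatives its adjusted p ran between 0.0014 and 0.0893. Nfe2l2, the related factor NRF2, differed by 0.03 with overlapping arrays (adjusted p = 0.798). Of the 36 core and cap genes, 2 were higher, Psmb5 and Psmd5, near the 7.01% of all genes that were higher.

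**Figure D4:**
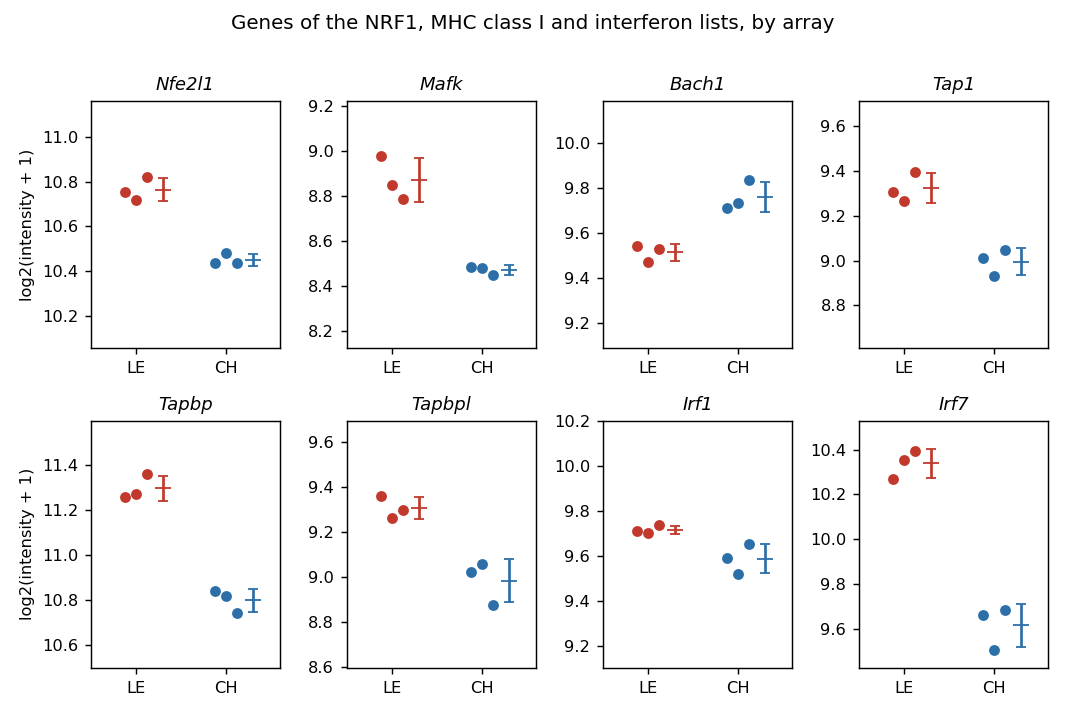
Levels of genes of the NRF1, MHC class I and interferon lists. The y axis is log2(intensity + 1) with the same span in each panel, dots are single arrays of lovastatin/ezetimibe (LE, left) and cholesterol (CH, right) livers, and bars give the mean and SD of 3 arrays. Nfe2l1, Mafk, Tap1, Tapbp, Tapbpl and Irf7 are higher in LE, Bach1 is lower, and the Irf1 groups lie close together.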

How the data were processed

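Liver RNA of 6 arrays, 3 per diet, was analysed from probe set intensities that the authors deposited on a linear scale. The sources used here do not give their background correction, summary or normalisation. Per the labels RNA was extracted with Trizol. The design text names Partek Genomics Suite and cyberT. The platform annotation named 1 gene for 21789 of 35556 probe sets, several for 1621 and none for 12146. By gene identifier 21698 of the 21789 matched RefSeq, and 0 symbols changed. Each of 19938 genes was represented by its probe set with the highest mean. For 5 members more than 1 probe set existed. Signal of near-identical copies cannot be separated.

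Values were taken as log2(intensity + 1), and the diets were fitted in R 4.3.3 by limma 3.58.1, with its lmFit and eBayes functions. Its p-values are two-sided and were adjusted by Benjamini-Hochberg across the 19938 genes. The fit was tested on simulated data. Tables and figures were made with Python 3.11.15, pandas 2.3.3 and matplotlib 3.10.9. The members, gene lists and tests were chosen with earlier results of these data known. Every member was to be described by its role, with values on every array for the immunoproteasome, catalytic and Psmg genes, those past the threshold and the 3 highest and 3 lowest in core and cap, and in each related list up to 4 genes past the threshold, or 2 where none passed. Pomp, Usp14, Uchl5, Sem1, Vcp, Maff, Mafg, B2m, Alb and Ttr were named outside this rule, for their roles, after their values were seen. Tap2, Pdia3 and Canx were also named outside this rule, for their differences, after their values were seen. Alternatives were a replicate block, quantile normalisation, centring, leaving out the third of genes that was dimmest (the dim genes), averaging probe sets per gene, limma's intensity trend with a robust prior, a cyberT-like test (window of 101 genes, prior weight 10, since the study's settings are not given), a pseudocount of 16 and leaving out each array. The number of arrays limits the precision. No protein sequences were used.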

Additional observations from a re-analysis of the deposited data

Results flagged for a closer look

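Probe sets that carry a proteasome symbol but did not represent a gene in the comparison gave 2 signals in which all lovastatin/ezetimibe arrays lay above all cholesterol arrays. A further probe set of Psma3 lay wholly below (-0.15), and the remaining ones overlapped between the diets. Of all genes, 15.9% lay wholly above and 14.7% wholly below, so such signals are common. The probe set shared by Psme2b and Psme2, which carries several genes and can name neither, had 9.74, 9.93 and 9.91 in LE1 to LE3 and 9.61, 9.59 and 9.71 in CH1 to CH3, a log2 difference of 0.22. The probe set of Psme2 alone gave 0.10. The second probe set of Psmc1 had 10.26, 10.36 and 10.36 in LE1 to LE3 and 10.23, 10.19 and 10.20 in CH1 to CH3, a difference of 0.12, whereas the probe set that represented Psmc1 gave 0.04 with overlapping groups. Neither signal was tested.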

How the results depend on the processing

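The calls of Psmd5 and Psmb9 held in all 14 alternatives. Same-numbered arrays of the diets shared little deviation (correlations -0.02, -0.10 and 0.16), which cannot settle whether the numbers pair the arrays. With the replicate block 657 of all genes were lower, against 1012 without it. By limma with this block 0 members were lower and 0 core genes higher, the adjusted p becoming 0.0813 for Psmb5 and 0.0791 for Psme4. The call of Bach1 ended too. The lower genes overall numbered 1598 after quantile normalisation and 1560 with the intensity trend, and 525 to 893 when 1 array was left out. The members that rose numbered 5 without the dim genes, 7 under the intensity trend and 6 by the cyberT-like test, against 3. Higher genes over the whole array also became more numerous there, with 1797, 1961 and 1745, against 1398. In these settings 3 core genes rose with the trend and 3 with the cyberT-like test, 2 immunoproteasome genes rose with the trend, and 1 Psmg gene (Psmg4) rose without the dim genes, where 3 members were not tested. After centring 0 core genes rose. With 1 array left out, 2 members rose each time, 0 to 1 fell and 0 core genes rose, always by limma. The median of the immunoproteasome genes was 0.0872 after quantile normalisation and 0.103 to 0.146 with 1 array left out, and that of the Psmg genes -0.0432 to 0.0421. No member that passed in any setting changed its direction. Members with differences near 0 are limited by the spread between 3 arrays per diet, with a median SE of 0.05.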
